A study of Mus musculus with 10 samples.

Results

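The 35 genes described here encode the proteins that bring glucose into the cell, break it down to pyruvate and lactate, export lactate, and run the pentose phosphate pathway, together with Gpd2, which passes glycolytic electrons to mitochondria. They are named members of these pathways, with no measured value in the rule that lists them, and all 35 were found among the 22553 Ensembl genes of the count table by matching IDs to mouse symbols. They were compared between Treg with both Tfam copies floxed (KO) and control Treg with 1 floxed copy. Treg (regulatory T cells) hold other immune cells in check, and TFAM packages mitochondrial DNA and is needed for its transcription. The KO libraries came from female C57BL/6 mice with the genotype Tfam fl/fl Foxp3 Yfp-Cre/+, and the control libraries from female littermates with the genotype Tfam fl/+ Foxp3 Yfp-Cre/+, whose Cre-positive Treg lose 1 Tfam copy and which carry the same Cre allele. Foxp3 lies on the X chromosome and drives Cre, so in these heterozygous females only part of the Treg express YFP and Cre; the YFP-positive cells were sorted from spleen and lymph nodes and pooled from 2 to 3 mice a library, and the age of the mice is not given in the sources used here. Poly(A) RNA was sequenced in 3 KO and 3 control libraries, and nothing in the labels says whether the pools came from separate days or litters, so a p-value here speaks only of how far these pools vary, part of which may be technical.

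Glycolysis splits glucose into pyruvate in the cytosol, with a small gain of ATP and NADH. Lactate dehydrogenase turns pyruvate into lactate and so returns NAD+ to the pathway, which matters most in cells whose respiratory chain cannot reoxidise NADH. The pentose phosphate pathway branches off at glucose-6-phosphate: its oxidative arm makes NADPH for biosynthesis and for defence against oxidants, and its non-oxidative arm exchanges sugars between ribose phosphate and glycolysis. In T cells glycolytic genes rise on activation and are targets of HIF-1 and MYC, and resting Treg are known to rely more on mitochondrial respiration than effector T cells do.

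The libraries held between 19087757 and 23794028 gene counts in KO and between 21419772 and 27490253 in control. Levels are given as CPM (each library's counts divided by its TMM-scaled total), and changes as the log2 fold change of KO over control. CPM is not divided by transcript length, so levels are compared between libraries and not between genes. Tfam (ENSMUSG00000003923) stood at 15.6, 14.4 and 16.5 CPM in KO replicates 1 to 3, against 25.9, 30.6 and 42.4 CPM in control replicates 1 to 3, and the groups did not overlap. The KO level was 0.470 times the control level, so Tfam RNA was reduced and still counted in KO; the deleted exons and the protein were not measured here. It fell, with a log2 fold change of -1.09 ± 0.17 (SE; 95% interval -1.48 to -0.70; edgeR adjusted p = 0.02), and kept its direction whichever library was left out. The call on Tfam was lost when any KO library was dropped (adjusted p = 0.109, 0.0866 and 0.0844 without replicates 1, 2 and 3) or when control replicate 2 was (0.0551). Foxp3 averaged 818 ± 48.0 CPM in KO and 744 ± 95.3 CPM in control (SD, n = 3 each). The 8 T cell and Treg markers summed to 3423, 3348 and 3332 CPM in the KO libraries and 3606, 3478 and 3499 CPM in the control libraries, with 0 of the 8 at 0 in any library. Markers of B cells (7 genes) summed to 398, 399 and 433 CPM in KO and 549, 566 and 578 CPM in control, and those of CD8 T and NK cells (6 genes) to 22.1, 22.5 and 19.4 CPM in KO and 18.1, 19.6 and 18.8 CPM in control. In bulk RNA, fewer cells of a type and less RNA per cell cannot be told apart.

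None of the 35 genes was called different between KO and control Treg. All 35 passed the filter on low counts and were tested with edgeR's quasi-likelihood test across 11990 genes, with Benjamini-Hochberg adjustment and a call at an adjusted p under 0.05. Of the 35, 0 were called lower and 0 higher, while over all genes 1.39% were called lower and 0.1% higher. DESeq2 also called 0 of the 35, beside 2.25% of all genes lower and 0.647% higher, and limma-voom called 0. At an unadjusted p under 0.05 there were 2, Tpi1 and Pgd, both lower in KO, against 7.22% of all genes lower and 5.4% higher. The smallest adjusted p among the 35 was 0.278, for Tpi1. With the replicate number as a block, which pairs the libraries, the count of calls over all genes was larger (4.39% lower and 1.97% higher), and of the 35 genes 0 were called, the smallest adjusted p being 0.0578, again for Tpi1. DESeq2 with that block called 0 of the 35 as well, beside 2.55% lower and 1.17% higher over all genes.

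A p above the threshold does not show that a gene is equal in both groups, so the 95% interval of each log2 fold change is given as the measure of what the libraries could resolve. For 34 of the 35 genes the interval lay within a 2-fold change in either direction, Hk3 being the exception. For 30 of the 35 it lay within a 1.5-fold change, the 5 others being Hk3, Pfkfb2, Pfkfb4, Aldoc and Gapdh, all of which averaged under 10 CPM.

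**Figure D1:**
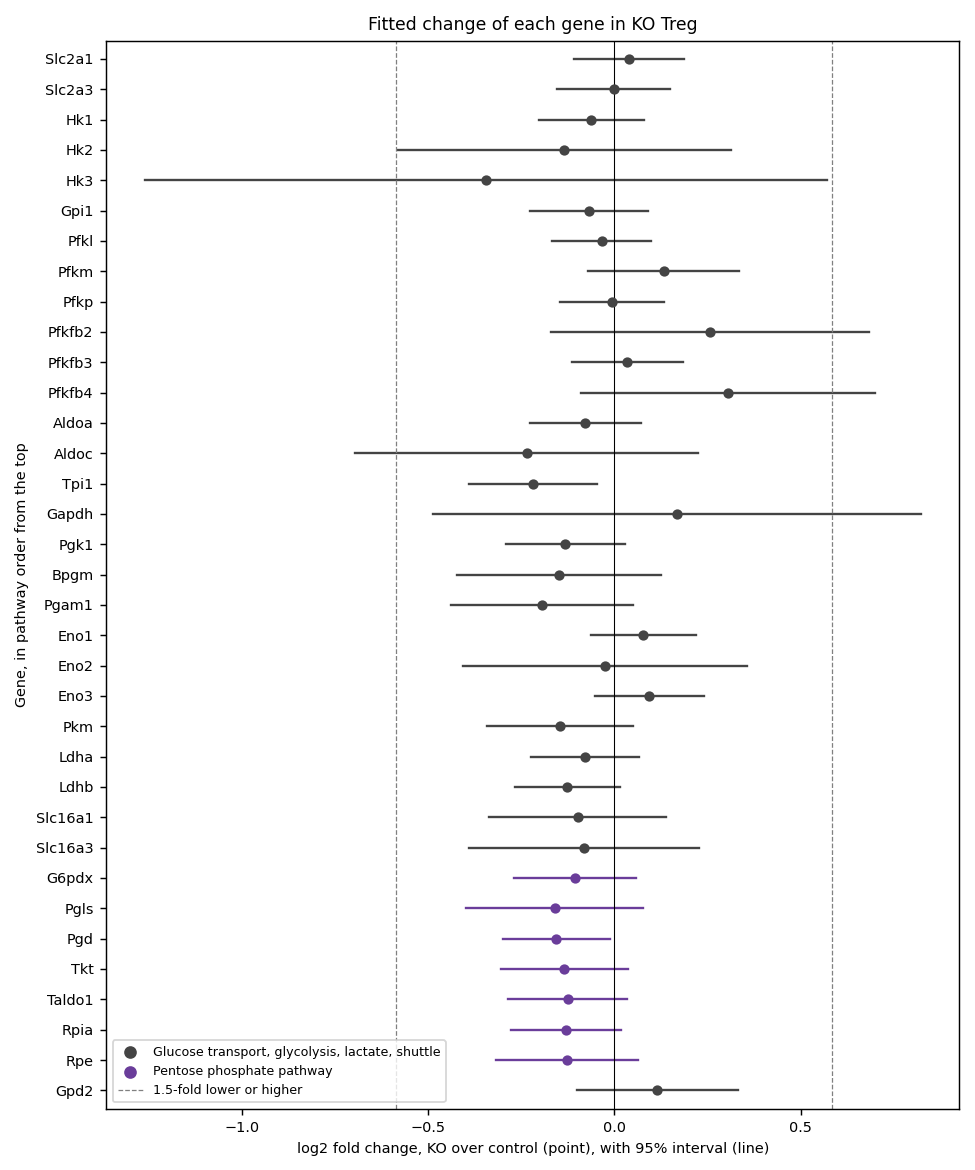
Log2 fold change of KO over control (point) with its 95% interval (line) for the 35 genes, from glucose transport at the top to the glycerol phosphate shuttle at the bottom; dashed lines mark a 1.5-fold change either way. The 7 pentose phosphate genes, in purple, all have points left of 0, between -0.16 and -0.11, and the widest interval is that of Hk3, from -1.26 to 0.57.

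The fitted values leaned to the lower side without any one of them being called. Of the 35 log2 fold changes 26 were below 0, which is 74.3%, beside 51.2% of all genes tested, and their median was -0.08, beside -0.0045 over all genes. Every value of one library shares that library's scaling factor, and the count below 0 was 24 of 35 with DESeq2's size factors in the same fit and 26 of 35 with library totals alone. The groups did not overlap for 7 genes that were lower in KO, against 10.4% of all genes, and for 2 that were higher, against 8.63%. The 7 were Tpi1, Pgam1, Ldhb, Pgd, Tkt, Rpia and Rpe, and the 2 were Eno1 and Eno3. The summed level of the 35 genes was 4620, 4770 and 4389 CPM in KO replicates 1 to 3 and 4812, 4793 and 4860 CPM in control replicates 1 to 3. KO replicate 3 was the lowest of the 6 libraries for 15 of the 35 genes. It was also the library with the lowest sum of 10 cycling-cell markers, which was 124, 129 and 56.2 CPM in KO replicates 1 to 3 and 181, 295 and 92.4 CPM in control replicates 1 to 3; the part of cycling cells in the glycolytic levels was not tested. The sums of the 7 B cell markers and of the 8 T cell and Treg markers, given with the depths, were each lower in every KO library than in any control library. Of those 8, Foxp3 and Il2ra were fitted above 0 (0.14 and 0.05). The part of either sum in the lean of the 35 genes was not tested.

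**Figure D2:**
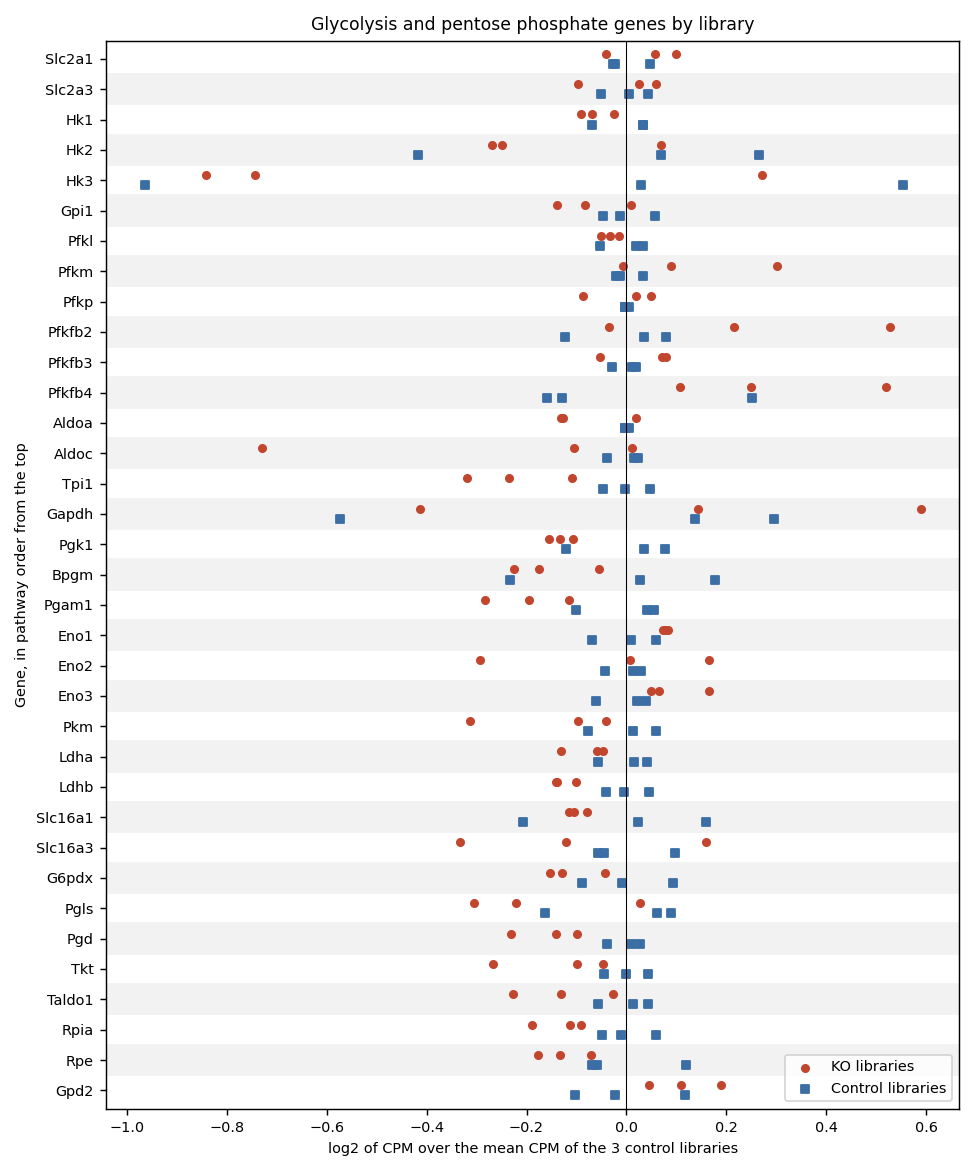
Level of each of the 35 genes in every library, as the log2 of its CPM over the mean CPM of the 3 control libraries, with KO libraries as red circles above control libraries as blue squares. Most genes scatter closely around 0 with both groups mixed, Hk3 and Gapdh spread over the widest range in both groups, and for the rows from G6pdx to Rpe the KO circles sit mostly to the left.

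Glucose enters T cells mainly through the facilitative transporters GLUT1 and GLUT3. Slc2a1, which encodes GLUT1, had 67.8, 69.9 and 63.4 CPM in KO replicates 1 to 3, against 64.2, 67.4 and 64.1 CPM in control replicates 1 to 3. The 2 groups overlapped, and the log2 fold change was 0.04 ± 0.07 (SE; 95% interval -0.11 to 0.19; edgeR adjusted p = 0.847). Slc2a3, which encodes GLUT3, had 92.0, 94.3 and 84.5 CPM in KO replicates 1 to 3, against 90.7, 93.2 and 87.3 CPM in control replicates 1 to 3. The groups overlapped here too, with a log2 fold change of -0.0021 ± 0.07 (SE; 95% interval -0.15 to 0.15; edgeR adjusted p = 0.995).

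Hexokinases phosphorylate glucose and so trap it in the cell. Hk1, the form found in most tissues, had 296, 287 and 282 CPM in KO replicates 1 to 3, against 308, 287 and 308 CPM in control replicates 1 to 3, a log2 fold change of -0.06 ± 0.06 (SE; 95% interval -0.20 to 0.08; edgeR adjusted p = 0.728). KO replicate 2 and control replicate 2 had the same level to 3 digits and the groups overlapped. Hk2, the form induced on growth and activation, had 7.26, 5.75 and 5.83 CPM in KO, against 7.26, 8.32 and 5.19 CPM in control. Control replicate 3 was the lowest library for Hk2 and control replicate 2 the highest, and the log2 fold change was -0.14 ± 0.20 (SE; 95% interval -0.58 to 0.31; edgeR adjusted p = 0.821). Its change within same-numbered pairs was -0.53 in pair 2 and 0.17 in pair 3.

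Hk3, the hexokinase of myeloid cells, was the gene of the 35 with the widest spread between libraries relative to its mean. It had 5.62, 11.3 and 5.25 CPM in KO replicates 1 to 3, against 13.8, 9.59 and 4.82 CPM in control replicates 1 to 3, so the highest and the lowest library were both controls. Its log2 fold change was -0.34 ± 0.40 (SE; 95% interval -1.26 to 0.57; edgeR adjusted p = 0.774), and without control replicate 1 it was 0.05. The 14 macrophage and monocyte markers summed to 562, 1314 and 490.3 CPM in KO replicates 1 to 3 and 436, 917 and 497 CPM in control replicates 1 to 3. Their sum was highest in the 2 libraries numbered 2, and Itgam was at 0 in KO replicate 3. Not every marker followed the sum. Marco had 7.5, 4.0 and 5.9 CPM in KO replicates 1 to 3, against 1.5, 3.1 and 3.3 CPM in control replicates 1 to 3. Hk3 was above 9 CPM in both libraries numbered 2. It was highest in control replicate 1, where the sum of the 14 markers was the lowest of the 6. The 8 neutrophil markers summed to at most 1.44 CPM in any library, and the part of myeloid RNA in the level of Hk3 was not tested.

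**Figure D3:**
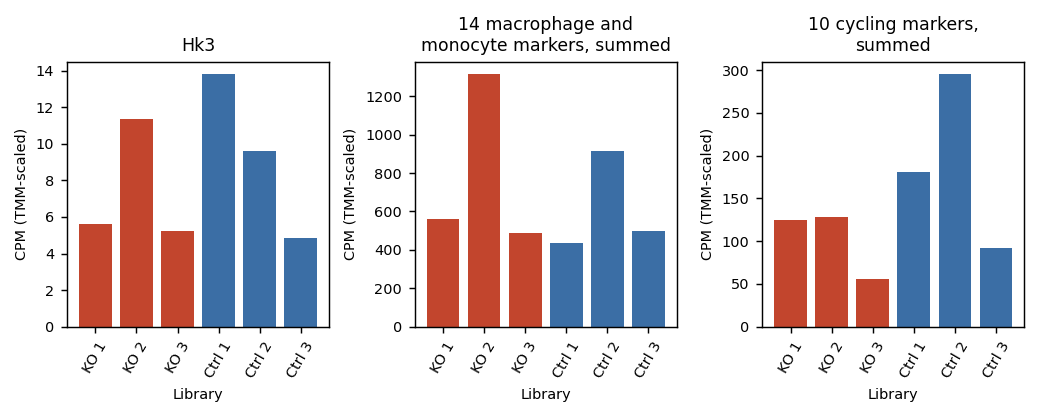
CPM of Hk3, summed CPM of 14 macrophage and monocyte markers and summed CPM of 10 cycling-cell markers in each library, with KO bars (red) left of control bars (blue). Hk3 is highest in control replicate 1 at 13.8 CPM, the macrophage sum in KO replicate 2 at 1314 CPM and the cycling sum in control replicate 2 at 295 CPM.

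Gpi1, the isomerase that makes fructose-6-phosphate, had 676, 721 and 650.4 CPM in KO replicates 1 to 3, against 709.8, 693 and 744 CPM in control replicates 1 to 3. KO replicate 2 lay inside the control range, and the log2 fold change was -0.07 ± 0.07 (SE; 95% interval -0.23 to 0.09; edgeR adjusted p = 0.729). Phosphofructokinase commits the sugar to glycolysis and is built from subunits of 3 types. The liver-type subunit Pfkl had 123, 120.4 and 122 CPM in KO, against 128, 120.2 and 126 CPM in control, with a log2 fold change of -0.03 ± 0.06, and the platelet-type subunit Pfkp averaged 176 ± 8.56 CPM in KO and 176 ± 0.617 CPM in control (SD, n = 3 each), with -0.01 ± 0.06. The interval of Pfkp was -0.15 to 0.13, and that of Pfkl -0.17 to 0.10. The muscle-type subunit Pfkm had 42.9, 40.1 and 49.7 CPM in KO, against 40.0, 39.7 and 41.3 CPM in control; KO replicate 3 was the highest of the 6 libraries, and the log2 fold change was 0.13 ± 0.09 (SE; 95% interval -0.07 to 0.33; edgeR adjusted p = 0.584). Without KO replicate 3 it was 0.04.

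The bifunctional PFKFB enzymes set the level of fructose-2,6-bisphosphate, the allosteric activator of phosphofructokinase. The 3 forms among the 35 genes were all fitted above 0, and 0 of the 3 were called. Pfkfb3, whose kinase activity far exceeds its phosphatase activity, averaged 56.9 ± 2.86 CPM in KO and 55.6 ± 0.999 CPM in control (SD, n = 3 each), a log2 fold change of 0.03 ± 0.07. Pfkfb4 had 6.54, 7.89 and 5.93 CPM in KO replicates 1 to 3, against 5.03, 6.55 and 4.93 CPM in control replicates 1 to 3. Its lowest KO library, replicate 3, lay below control replicate 2, and its log2 fold change of 0.31 ± 0.17 (SE; 95% interval -0.09 to 0.70; edgeR adjusted p = 0.509) was the highest among the 35 genes. Within same-numbered pairs Pfkfb4 was higher in KO by 0.38, 0.27 and 0.27 on the log2 scale, and with the replicate block its adjusted p was 0.187. Pfkfb2 had 4.43, 5.50 and 3.73 CPM in KO, against 4.04, 3.91 and 3.51 CPM in control, with the groups overlapping and a log2 fold change of 0.26 ± 0.19 (adjusted p = 0.619, edgeR).

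Aldolase cleaves fructose-1,6-bisphosphate. Aldoa had 348, 386 and 349 CPM in KO replicates 1 to 3, against 381, 382 and 380.3 CPM in control replicates 1 to 3; KO replicate 2 was the highest library and the other 2 KO libraries the lowest, with a log2 fold change of -0.08 ± 0.07 (SE; 95% interval -0.23 to 0.07; edgeR adjusted p = 0.676). Aldoc had 4.86, 5.26 and 3.15 CPM in KO, against 5.30, 5.27 and 5.08 CPM in control. KO replicate 3 stood below the 5 other libraries, and the log2 fold change was -0.24 ± 0.20 (SE; 95% interval -0.70 to 0.23; edgeR adjusted p = 0.68). Without KO replicate 3 it was -0.05.

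Tpi1, the isomerase that interconverts the 2 triose phosphates, had the smallest p of the 35 genes. It had 45.0, 49.1 and 42.5 CPM in KO replicates 1 to 3, against 51.3, 54.7 and 52.9 CPM in control replicates 1 to 3, so every KO library lay below every control library. Its log2 fold change was -0.22 ± 0.07 (SE; 95% interval -0.39 to -0.05; edgeR adjusted p = 0.278), an unadjusted p of 0.0181. Within same-numbered pairs it was -0.19, -0.16 and -0.32. Tpi1 was the gene of the set nearest to a call and did not pass the threshold in any of the 14 alternative analyses.

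Gapdh, which oxidises glyceraldehyde-3-phosphate and makes NADH, was counted at only 7.26, 9.88 and 4.93 CPM in KO replicates 1 to 3, against 8.07, 7.23 and 4.42 CPM in control replicates 1 to 3. Gapdh is among the most abundant mRNAs of most cells and has many near-identical processed copies in the mouse genome, and other abundant genes with many such copies were counted both low and high. Ppia, a housekeeping isomerase, was counted at 24.7, 13.7 and 2.36 CPM in KO, against 2.11, 2.09 and 11.9 CPM in control, and the ribosomal protein gene Rpl13a at 1.22, 1.22 and 1.21 CPM in KO, against 0.961, 1.09 and 0.731 CPM in control. The actin gene Actb averaged 5320 ± 527 CPM in KO and 5447 ± 462 CPM in control (SD, n = 3 each), and the elongation factor gene Eef1a1 5879 ± 344 CPM in KO and 6120 ± 400.4 CPM in control (SD, n = 3 each). How reads that match several places were counted is not given in the sources used here and its part in the Gapdh count was not tested, so the Gapdh value is uncertain as a measure of its mRNA. Its log2 fold change was 0.17 ± 0.29 (SE; 95% interval -0.49 to 0.82; edgeR adjusted p = 0.853). The same uncertainty holds to an unknown degree for other glycolytic genes with close copies, such as Pgam1, Tpi1 and Ldha. Eno1b, a near-identical copy of Eno1, was counted at 8.87, 11.0 and 0.840 CPM in KO, against 6.96, 13.9 and 4.31 CPM in control, and Aldoart1, a retrogene of the aldolase family, at 9.84, 11.1 and 10.8 CPM in KO, against 10.8, 10.1 and 11.4 CPM in control.

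Pgk1, which makes the first ATP of the pathway, had 69.0, 67.8 and 66.7 CPM in KO replicates 1 to 3, against 68.3, 76.2 and 78.4 CPM in control replicates 1 to 3. KO replicate 1 slightly exceeded control replicate 1, while the 2 other control libraries lay above all 3 KO libraries, and the log2 fold change was -0.13 ± 0.07 (SE; 95% interval -0.29 to 0.03; edgeR adjusted p = 0.484). Of the phosphoglycerate mutases, Pgam1 had 9.71, 10.3 and 9.13 CPM in KO, against 10.4, 11.6 and 11.4 CPM in control, without overlap, and a log2 fold change of -0.20 ± 0.11 (SE; 95% interval -0.44 to 0.05; edgeR adjusted p = 0.494). Bpgm, which makes the haemoglobin effector 2,3-bisphosphoglycerate in red cells, had 14.4, 16.3 and 14.96 CPM in KO, against 14.4, 19.1 and 17.2 CPM in control, with a log2 fold change of -0.15 ± 0.12 (SE; 95% interval -0.42 to 0.12; edgeR adjusted p = 0.659). The 8 erythroid markers found in the table summed to 17.3, 8.96 and 9.71 CPM in the KO libraries and 6.92, 9.78 and 11.1 CPM in the control libraries.

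Of the 3 enolase genes, 2 were fitted above 0. Eno1 had 378, 375 and 376 CPM in KO replicates 1 to 3, against 359, 340 and 372 CPM in control replicates 1 to 3, and Eno3, the muscle form, had 141, 151 and 139.5 CPM in KO replicates 1 to 3, against 138, 137 and 129 CPM in control replicates 1 to 3. For both genes every KO library lay above every control library, although in each the lowest KO library stood close to the highest control library. The log2 fold changes were 0.08 ± 0.06 for Eno1 and 0.09 ± 0.06 for Eno3, with intervals of -0.06 to 0.22 and -0.05 to 0.24 and edgeR adjusted p-values of 0.658 and 0.589. Eno2, the neuronal form, averaged 4.51 ± 0.708 CPM in KO and 4.59 ± 0.122 CPM in control (SD, n = 3 each), with -0.03 ± 0.17.

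Pkm, the pyruvate kinase of T cells, which makes the second ATP of the pathway, had 620, 644 and 533 CPM in KO replicates 1 to 3, against 690.5, 669 and 629 CPM in control replicates 1 to 3. KO replicate 3 was the lowest of the 6 libraries and KO replicate 2 lay inside the control range, and the log2 fold change was -0.15 ± 0.09 (SE; 95% interval -0.34 to 0.05; edgeR adjusted p = 0.528). Without KO replicate 3 the log2 fold change of Pkm was -0.07. Counts are summed over the gene, so the 2 splice forms of Pkm cannot be told apart.

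Lactate dehydrogenase closes the fermentative route. Ldha, the subunit that favours pyruvate reduction, had 479.9, 476 and 453 CPM in KO replicates 1 to 3, against 476, 501 and 509.7 CPM in control replicates 1 to 3. KO replicate 1 lay inside the control range, and the log2 fold change was -0.08 ± 0.06 (SE; 95% interval -0.22 to 0.07; edgeR adjusted p = 0.66). Ldhb, the subunit that favours lactate oxidation, had 50.6, 52.0 and 50.7 CPM in KO replicates 1 to 3, against 54.2, 55.6 and 57.6 CPM in control replicates 1 to 3; here the groups did not overlap, with a log2 fold change of -0.13 ± 0.06 (SE; 95% interval -0.27 to 0.01; edgeR adjusted p = 0.444). The lactate carriers MCT1 and MCT4 are encoded by Slc16a1 and Slc16a3. Slc16a1 had 19.4, 19.3 and 19.8 CPM in KO, against 18.1, 23.3 and 21.2 CPM in control, with the KO libraries inside the control range and a log2 fold change of -0.10 ± 0.10. Slc16a3 had 14.7, 10.5 and 12.1 CPM in KO, against 14.1, 12.8 and 12.7 CPM in control, with a log2 fold change of -0.08 ± 0.14. The upper ends of the 95% intervals were 0.07 for Ldha, 0.14 for Slc16a1 and 0.23 for Slc16a3.

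Promoter windows of 300 bases around the start of the gene were read from RefSeq sequences of build GRCm38.p6 for 34 of the 35 genes, taking the first listed window of each gene. ACGTG on either strand, 1 form of the core of the HIF-1 element, was in 14 of the 34 windows (41.2%), beside 19.7% of 27025 genes. The form GCGTG was not searched. The E-box CACGTG, which contains ACGTG on both strands and is read by MYC, was in 4 of 34 (11.8%), beside 7.24% of all. The 14 genes with ACGTG had log2 fold changes with a median of -0.09, 9 of them below 0. The 20 without ACGTG had a median of -0.10, 16 of them below 0. A match in a window is a description of its letters and not a binding site.

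The Ldha window (chr7:46845554-46845853, plus strand) is printed because Ldha is a known HIF-1 target; it runs 5′ to 3′ on the strand of the gene, and capitals mark ACGTG on either strand, in 3 stretches.
Ldha: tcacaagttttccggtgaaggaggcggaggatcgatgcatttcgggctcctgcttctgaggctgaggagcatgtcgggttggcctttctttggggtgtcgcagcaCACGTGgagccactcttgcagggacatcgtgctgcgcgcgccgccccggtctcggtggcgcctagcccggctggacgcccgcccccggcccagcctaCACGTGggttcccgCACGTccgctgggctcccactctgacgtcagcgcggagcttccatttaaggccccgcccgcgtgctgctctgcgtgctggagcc

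The 7 pentose phosphate genes were all fitted below 0, between -0.16 and -0.11, with a median of -0.13, and 0 of the 7 were called. The other 28 genes had a median of -0.07, with 19 below 0. In 4 of the 7 (Pgd, Tkt, Rpia and Rpe) the groups did not overlap, with KO lower, as in 10.4% of all genes. Of the 21 within-pair differences of the 7 genes, 20 were below 0 (95.2%), beside 50.9% of those of all genes tested, the exception being Pgls in pair 2. The 7 genes were read in the same pairs of libraries and share their scaling, so these differences are not independent replicates. All 7 stayed below 0 in each of the 14 alternative analyses, with medians between -0.18 and -0.10. The split into this pathway and the rest was not tested as a difference.

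In the oxidative arm, G6pdx, the entry enzyme that makes NADPH, had 55.7, 60.1 and 56.7 CPM in KO replicates 1 to 3, against 58.2, 66.1 and 61.5 CPM in control replicates 1 to 3. KO replicate 2 exceeded control replicate 1, and the log2 fold change was -0.11 ± 0.07 (SE; 95% interval -0.27 to 0.06; edgeR adjusted p = 0.585). Pgls, the lactonase that follows it, had 58.4, 69.3 and 55.0 CPM in KO, against 72.4, 60.8 and 71.0 CPM in control, with overlap and -0.16 ± 0.10. Pgd, which makes the second NADPH and releases carbon dioxide, had 86.7, 89.2 and 81.4 CPM in KO replicates 1 to 3, against 97.5, 93.1 and 96.2 CPM in control replicates 1 to 3. All KO libraries of Pgd lay below all control libraries, with a log2 fold change of -0.16 ± 0.06 (SE; 95% interval -0.30 to -0.01; edgeR adjusted p = 0.352) and an unadjusted p of 0.0358.

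In the non-oxidative arm, the transketolase gene Tkt had 358, 371 and 318 CPM in KO replicates 1 to 3, against 371, 383 and 395 CPM in control replicates 1 to 3. The groups touched, with KO replicate 2 just below control replicate 1, and the log2 fold change was -0.13 ± 0.07 (SE; 95% interval -0.30 to 0.04; edgeR adjusted p = 0.5). The transaldolase gene Taldo1 had 201, 217 and 189 CPM in KO, against 212, 227 and 223 CPM in control, with a log2 fold change of -0.13 ± 0.07 (SE; 95% interval -0.29 to 0.04; edgeR adjusted p = 0.505). Rpia, the isomerase that makes ribose-5-phosphate, had 54.6, 57.6 and 58.5 CPM in KO, against 61.8, 60.1 and 64.9 CPM in control, without overlap and with -0.13 ± 0.06 (SE; 95% interval -0.28 to 0.02; edgeR adjusted p = 0.45). Rpe, the epimerase beside it, had 23.4, 25.2 and 24.1 CPM in KO, against 25.2, 25.4 and 28.7 CPM in control, and its log2 fold change was -0.13 ± 0.08, with KO replicate 2 and control replicate 1 almost equal.

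Gpd2 encodes the mitochondrial glycerol-3-phosphate dehydrogenase, which hands electrons from cytosolic NADH to the respiratory chain. It had 16.7, 17.4 and 18.4 CPM in KO replicates 1 to 3, against 17.5, 15.9 and 15.1 CPM in control replicates 1 to 3. Control replicate 1 exceeded KO replicates 1 and 2, and the log2 fold change was 0.11 ± 0.09 (SE; 95% interval -0.10 to 0.33; edgeR adjusted p = 0.668). Within pairs it was -0.07, 0.13 and 0.29.

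Ratios of 2 isozymes within a library do not depend on how libraries are scaled, and 8 pairs were compared with a two-sided exact permutation test over the 6 libraries, whose smallest possible p is 0.1. The log2 ratio of Slc2a3 to Slc2a1 was 0.44, 0.43 and 0.42 in KO replicates 1 to 3, against 0.50, 0.47 and 0.45 in control replicates 1 to 3. It was lower in every KO library than in any control library, the means differing by -0.04 on the log2 scale, with an exact p of 0.1 and an adjusted p of 0.8 over the 8 pairs. The log2 ratio of Ldha to Ldhb was 3.24, 3.19 and 3.16 in KO replicates 1 to 3, against 3.14, 3.17 and 3.15 in control replicates 1 to 3, a difference of 0.05 (KO minus control; exact p = 0.2, adjusted p = 0.8). That of Pfkfb3 to Pfkfb4 was 3.17, 2.89 and 3.18 in KO replicates 1 to 3, against 3.48, 3.10 and 3.47 in control replicates 1 to 3, a difference of -0.27 (exact p = 0.3, adjusted p = 0.8). Within same-numbered pairs this ratio was lower in KO in all 3, with differences of -0.32, -0.21 and -0.29, the Slc2a3 to Slc2a1 ratio was also lower and the Ldha to Ldhb ratio higher in all 3. For these 3 ratios the exact sign-flip test over pairs gave p = 0.25, the smallest that 3 pairs allow. The 5 other pairs had differences between -0.19 (Aldoc to Aldoa) and 0.03 (Pfkp to Pfkl), with overlapping groups. An isozyme ratio shows unequal change only and does not say which of its genes moved.

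**Figure D4:**
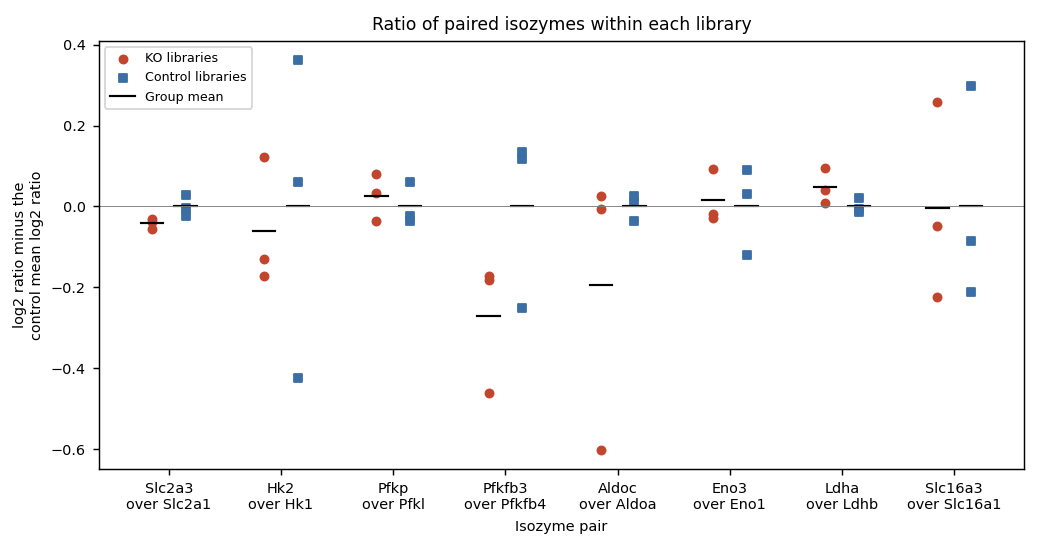
Log2 ratio of 2 isozymes in each library, minus the mean log2 ratio of the 3 control libraries, with KO libraries as red circles left of control libraries as blue squares and the group means as black bars. For the pair Slc2a3 and Slc2a1 the groups separate by a small step, while the pairs Hk2 and Hk1, Aldoc and Aldoa, and Slc16a3 and Slc16a1 scatter widely with both groups mixed.

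The genes around these 35 were read from 6 further lists with 106 genes, of which 91 were tested. Of these 91, 1 was called lower and 0 higher by edgeR, beside 1.39% and 0.1% of all genes, and their median log2 fold change was -0.02. With the replicate block 5 were called lower (Arrdc4, Hif1a, Irf4, Emb and Galm) and 1 higher (Ldhd), beside 4.39% lower and 1.97% higher over all genes, so these counts lay near the background. The called gene was Arrdc4 (ENSMUSG00000042659), an arrestin-domain protein that restrains glucose uptake and is a target of the glucose-sensing factors MondoA and ChREBP, as is its relative Txnip. Arrdc4 had 4.09, 3.85 and 5.56 CPM in KO replicates 1 to 3, against 10.9, 8.87 and 10.2 CPM in control replicates 1 to 3. It fell 2.22-fold without overlap, a log2 fold change of -1.15 ± 0.17 (SE; 95% interval -1.54 to -0.76; edgeR adjusted p = 0.0155). Arrdc4 was called by DESeq2 and limma-voom as well, and its adjusted p lay between 7.43e-06 and 0.112 over the 14 alternatives. The call was lost without KO replicate 1 (adjusted p = 0.112), KO replicate 2 (0.0718) or control replicate 1 (0.0732) and without both libraries numbered 2 (0.0772). Txnip, a member of the same list, had 1142, 975 and 894 CPM in KO replicates 1 to 3, against 1037, 857 and 1017 CPM in control replicates 1 to 3, with overlap and a log2 fold change of 0.05 ± 0.11 (SE; 95% interval -0.20 to 0.30; edgeR adjusted p = 0.893). The difference between Arrdc4 and Txnip was not tested.

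The Arrdc4 window (chr7:68749189-68749488, minus strand), from the same RefSeq table, is printed because Arrdc4 was the called gene of the lists. It runs 5′ to 3′ on the strand of the gene, and capitals mark CACGTG, in 1 stretch.
Arrdc4: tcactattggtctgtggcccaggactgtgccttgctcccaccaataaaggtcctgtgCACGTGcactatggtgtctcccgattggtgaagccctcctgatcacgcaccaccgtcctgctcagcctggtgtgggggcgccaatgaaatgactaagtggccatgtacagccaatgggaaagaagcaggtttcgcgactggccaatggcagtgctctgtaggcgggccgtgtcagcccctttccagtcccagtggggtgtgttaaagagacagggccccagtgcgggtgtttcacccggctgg

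The regulator list held 24 tested genes, with 10 below 0, a median of 0.02 and Arrdc4 as its 1 call. Hif1a, the oxygen-regulated subunit of HIF-1, had 186, 169.5 and 207 CPM in KO replicates 1 to 3, against 243, 230.5 and 238 CPM in control replicates 1 to 3. The groups did not overlap, and the log2 fold change was -0.34 ± 0.08 (SE; 95% interval -0.52 to -0.16; edgeR adjusted p = 0.106), which does not pass. With the replicate block Hif1a was called lower by edgeR (adjusted p = 0.00728) and by DESeq2 (0.00113), and DESeq2 called it without the block as well (0.00892). Irf4, a T cell factor needed for glycolytic gene induction on activation, was fitted at -0.31 ± 0.13 (log2 ± SE; adjusted p = 0.377); edgeR with the block called it lower (0.0303) and DESeq2 with the block did not (0.164). Myc, another driver of glycolytic genes, was fitted at 0.07 ± 0.09 (log2 ± SE; adjusted p = 0.808). Mlxip, which encodes MondoA, had 126, 107 and 150.3 CPM in KO replicates 1 to 3, against 122, 87.1 and 99.3 CPM in control replicates 1 to 3; the groups overlapped, and the log2 fold change was 0.32 ± 0.15 (SE; 95% interval -0.02 to 0.65; edgeR adjusted p = 0.424). Each KO library of Mlxip was above the control library of the same number, and with the replicate block its adjusted p was 0.0523 in edgeR, not called, and 0.0419 in DESeq2, called higher. Mlxipl, which encodes ChREBP, had at most 3 counts in any library and was not tested. Hif1a, Irf4, Myc, Mlxip, Mlxipl, Txnip, Ldhd and Pdk1 were named after their values were seen.

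**Figure D5:**
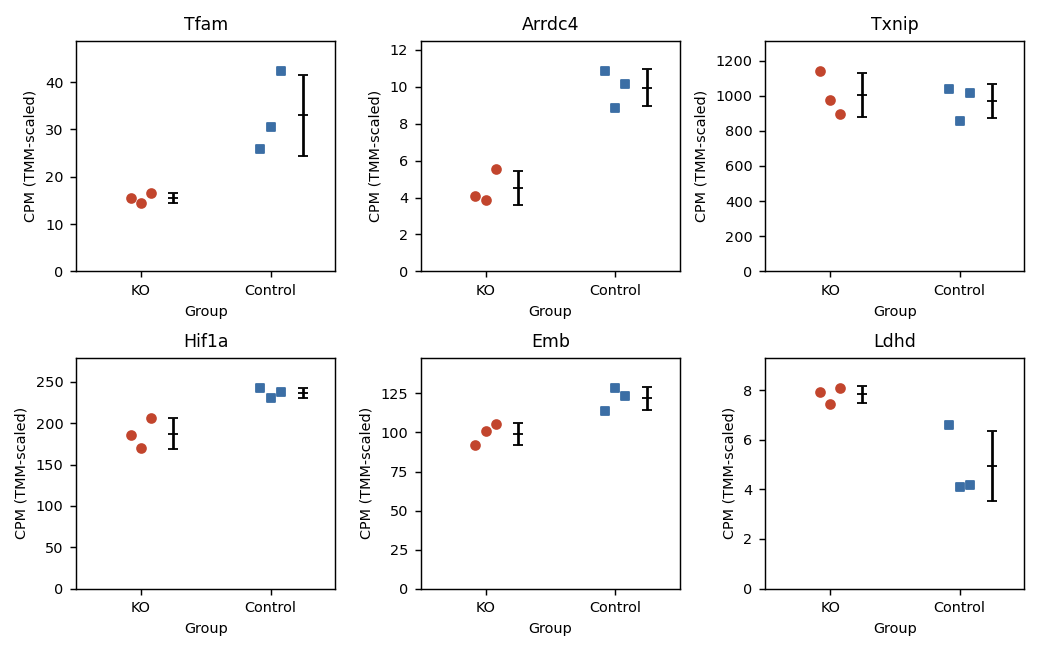
CPM of Tfam and of 5 genes around glycolysis in KO (red circles, left) and control libraries (blue squares, right), 1 point a library, with the mean and SD of each group beside the points. Arrdc4 stands at 3.85 to 5.56 CPM in KO and at 8.87 to 10.9 CPM in control, Txnip overlaps between the groups, and Hif1a, Emb and Ldhd separate by smaller steps.

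Among 15 other tested transporters and isozymes, 0 were called and the median was 0.09. Basigin (Bsg), the chaperone of the lactate carriers, was fitted at -0.12 ± 0.07 (log2 ± SE; adjusted p = 0.523). Embigin (Emb), a relative that also accompanies lactate carriers, had 91.7, 101 and 106 CPM in KO, against 114, 128 and 124 CPM in control; the groups did not overlap, and the log2 fold change was -0.30 ± 0.08 (SE; 95% interval -0.47 to -0.12; edgeR adjusted p = 0.14). Emb was called lower with the replicate block by edgeR (adjusted p = 0.00927) and by DESeq2 with and without the block (0.0143 and 0.0408). Ldhd, which oxidises D-lactate in mitochondria, had 7.94, 7.45 and 8.08 CPM in KO, against 6.57, 4.09 and 4.16 CPM in control, with a log2 fold change of 0.66 ± 0.20 (SE; 95% interval 0.21 to 1.11; edgeR adjusted p = 0.206). It was called higher by edgeR with the block (0.0254) or without control replicate 1 (0.0496), and not by DESeq2 with the block (0.0721).

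Where pyruvate enters mitochondria, 0 of 14 tested genes were called and the median was -0.01. Pdha1, the catalytic subunit of pyruvate dehydrogenase, was fitted at -0.03 ± 0.07 (log2 ± SE; adjusted p = 0.9). Of the kinases that switch this enzyme off, Pdk3 had 20.2, 21.6 and 19.9 CPM in KO, against 25.1, 23.4 and 28.3 CPM in control and -0.32 ± 0.09 (adjusted p = 0.203), while Pdk1 had 97.7, 99.5 and 98.9 CPM in KO, against 91.7, 78.1 and 87.5 CPM in control and 0.20 ± 0.07 (adjusted p = 0.294). Both kinases had groups that did not overlap, in opposite directions, and neither was called.

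The NADH shuttles had 0 called of 9, with 8 below 0 and a median of -0.09; Slc25a13, an aspartate-glutamate carrier, had -0.52 ± 0.18 (adjusted p = 0.274) and the malate dehydrogenase gene Mdh2 -0.06 ± 0.07 (adjusted p = 0.797). The other pentose and ribose phosphate genes had 0 called of 12 and a median of -0.04, with the regulatory protein Prpsap1 at 0.07 ± 0.09 (adjusted p = 0.796). Tktl1, a transketolase relative, was counted 9, 6 and 4 times in KO replicates 1 to 3 and 18, 17 and 21 times in control replicates 1 to 3, with a log2 fold change of -1.30 ± 0.34 (adjusted p = 0.143). The branches from glycolysis had 0 called of 17 and a median of -0.08. The glycogen phosphorylase gene Pygb had -0.09 ± 0.06 (adjusted p = 0.589). Galm, which interconverts the 2 anomers of hexoses, had 19.7, 18.5 and 19.5 CPM in KO, against 22.8, 24.8 and 26.2 CPM in control, without overlap, and -0.35 ± 0.09 (adjusted p = 0.11); with the replicate block it was called lower by edgeR (0.0267) and not by DESeq2 (0.154).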

How the data were processed

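RNA of sorted YFP-positive Treg was measured in 3 KO and 3 control libraries; the ATAC-seq libraries were not analysed here. The authors deposited 1 table of read counts per Ensembl gene, described as HTSeq counts per the labels. HISAT2 and DESeq2 are among the tools in the submitters' processing notes, and mm10 and mm9 are the builds; which build served the counts is not stated there. For the annotation, the strand setting and reads matching several places, the sources used here give nothing. Totals ran from 19087757 to 27490253, where a count of 3 equals 0.157 to 0.109 CPM, a floor that covers counting error only. No library repeats another: within a group their counts differed beyond sampling noise (chi-square per degree of freedom 8.75 to 27.4), so each counted once.

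IDs were matched to symbols for 22522 of 22553 genes. Of 2 IDs named Aldoa, the one with 51555 counts was used and the other, with 5, was not. In edgeR 4.0.16 (R 4.3.3), filterByExpr (minimum count 10, minimum total 15) kept 11990 genes, TMM factors lay between 0.9899 and 1.0274, and a quasi-likelihood F test gave KO over control, its p-values adjusted after Benjamini and Hochberg over all genes tested. SE and 95% intervals were derived from the F statistic. Alternatives used DESeq2 1.42.0, limma-voom (limma 3.58.1), other scaling, no filter, the replicate block and fewer libraries. The fit was tested on simulated data. It called 55.2% of 1.5-fold, 79.4% of 2-fold and 94% of 4-fold changes in the right direction, and 0.103% of unchanged genes. Changes smaller than 1.5-fold were not simulated, and the fitted changes of the 35 genes were all smaller than that.

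Same-numbered KO and control libraries deviated together from their group means (correlations over genes 0.327, 0.561 and 0.55 for numbers 1 to 3). All other combinations were below 0. Deviations from a group mean sum to 0 within the group, so negative values there follow in part from the positive ones. The replicate block therefore paired libraries of the same number. This pairing comes from the data, since the labels state none. The main fit and the permutation test of isozyme ratios did not use it. Log2 fold changes, intervals and adjusted p-values are unpaired unless the block or pairs are named. Named genes were the 35 members, Tfam and, of each further list, its called genes or else its most abundant gene and that with the smallest p. The members and lists were chosen with earlier results of these data known.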

Additional observations from a re-analysis of the deposited data

How the results depend on the processing

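The count of 0 called lower and 0 called higher among the 35 genes was the same in all 14 alternatives run: other scaling, DESeq2, limma-voom, no filter, the replicate block in edgeR and DESeq2, each library left out, and both libraries numbered 2 left out. The median of the 35 lay between -0.09 and -0.05 over them, with 22 to 27 of 35 below 0, and the block changed no call among the 35. Some uncalled genes changed sign: with DESeq2's size factors in edgeR Slc2a3 (0.0051), Pfkp (0.002); with DESeq2 Slc2a3 (0.0054), Pfkp (0.002); with DESeq2 and the replicate block Slc2a3 (0.0039), Pfkp (0.0009); with no filter Slc2a3 (0.0008); and without both libraries numbered 2 Hk2 (0.0771), Pfkp (0.036), Gapdh (-0.0249), Eno2 (0.0972), Slc16a3 (0.007), Prpsap1 (-0.0212), Txnip (-0.0128). With 1 library left out, log2 fold changes that changed sign ranged from -0.0464 to 0.13 for Txnip, -0.0335 to 0.0434 for Pfkp, -0.0922 to 0.38 for Gapdh, -0.13 to 0.10 for Eno2, -0.22 to 0.0385 for Slc16a3, -0.0263 to 0.0424 for Slc2a3, -0.10 to 0.0061 for Mdh2, -0.78 to 0.0531 for Hk3, -0.31 to 0.0152 for Hk2, -0.0284 to 0.14 for Prpsap1, -0.0146 to 0.14 for Myc and -0.0545 to 0.0121 for Pdha1. Differences of isozyme ratios that changed sign ranged from -0.27 to 0.12 for the ratio of Hk2 to Hk1, -0.0012 to 0.0572 for the ratio of Pfkp to Pfkl, -0.30 to 0.0099 for the ratio of Aldoc to Aldoa, -0.0452 to 0.0609 for the ratio of Eno3 to Eno1 and -0.14 to 0.14 for the ratio of Slc16a3 to Slc16a1, and with the replicate block the 8 differences were unchanged by construction, with sign-flip p-values no lower than 0.25, the smallest possible. Over all genes, 167 were called lower and 12 higher, against 526 and 236 with the replicate block, 264 and 76 in DESeq2, 300 and 138 in DESeq2 with the block, and 54 and 0 without both libraries numbered 2. Higher genes numbered 7 with library totals only and 3 in limma-voom. With 1 library left out, 26 to 166 genes were called lower (26, 61 and 63 without KO replicates 1, 2 and 3, and 84 and 82 without control replicates 1 and 2), and 0 to 10 higher; the cause was not tested. The widest intervals were those of genes under 10 CPM. Among these, the log2 levels of Hk3 had SDs of 0.62 in KO and 0.77 in control, and those of Gapdh 0.50 in KO and 0.46 in control (n = 3 each), with 94 to 359 counts a library.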
